A study of Marchantia polymorpha and Arabidopsis thaliana with 40 samples.

Results

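Chromatin accessibility was compared between hsfb1 and Tak-1 gemmalings of the liverwort Marchantia polymorpha kept at 22 °C. Of the 40 ATAC-seq libraries of the series, the 4 that carry these labels were taken, 2 of hsfb1 and 2 of Tak-1, and all 40873 regions of the Marchantia heat table were read. In ATAC-seq the Tn5 transposase cuts open DNA and leaves sequencing adapters there, so the number of reads in a region follows how open it is. Tak-1 is the male wild type. The hsfb1 plants were knockout line b1-70, and the comparison lines were the hsfa1 knockout a1-8 and the double knockout of both genes (dko) a1,b1-62. Each genotype was thus represented by 1 line, so an effect of the knockout and any other difference between the lines cannot be told apart. How the lines were made is not in the labels. All gemmalings were grown under continuous light and harvested at day 7, and 50000 sorted nuclei entered each library. The heated libraries came from gemmalings of the same lines held at 37 °C for 1 h. Another set of libraries of the same 4 genotypes, labelled as batch 2 where the heat set is batch 1, belonged to an experiment with abscisic acid (ABA). That set was kept at 22 °C and has groups titled mock and ABA. Its labels give 50 µM ABA, 2 h and an ethanol entry of 20%. Nothing states that the replicates came from separate cultures, so p-values measure the spread between libraries, which may be technical. In the heat table that spread was estimated over all 8 groups, not from the 4 libraries compared alone.

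Heat shock transcription factors bind short inverted repeats of GAA called heat shock elements. Class A1 factors activate chaperone genes under heat. Class B factors lack the activator domain of class A, and several of them repress transcription in Arabidopsis, where they limit the expression of heat shock genes in unheated plants. The comparison at 22 °C asks which chromatin differs in a plant without the class B factor before any heat is given.

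Regions are named by the chromosome, start and end of the deposited table. The sources used here name no build for that table, and no annotation of it was used, so the genes near a region, its sequence and the hsfb1 gene itself were not analysed. The knockout was therefore not checked in these libraries.

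The libraries held 42.4 and 54.2 M counts in Tak-1 and 29.6 and 22.2 M in hsfb1, and the 16 libraries of the table held 21.2 to 71.2 M. Replicate 2 of Tak-1 at 22 °C stood apart. The top 10% of regions by mean CPM (counts scaled to a common total) took 47.9% of its counts, against 39.6% to 42.8% in the other 15 libraries. Its TMM scaling factor was 0.828, against 0.985 to 1.05 in the others. The log2 ratio of replicate 2 to replicate 1 followed the level of the region in Tak-1, with a Spearman's rho of 0.63 over 40873 regions that share the same 2 libraries. In hsfb1 it went the other way, with a rho of -0.35. Results are therefore given with and without Tak-1 replicate 2 where it moves them. From the 5th to the 95th percentile, the log2 ratio of replicate 2 to replicate 1 ran from -0.68 to 0.51 in Tak-1. In hsfb1 it ran from -0.37 to 0.53. Every other group of the heat table spanned a narrower range, such as -0.30 to 0.33 in heated dko. The tests shared their spread over all these groups.

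Most differences between hsfb1 and Tak-1 at 22 °C were small, and a short list of regions differed over 4-fold. At an adjusted p under 0.05 in edgeR's quasi-likelihood test, 7058 regions were higher in hsfb1 (17.3% of those tested) and 7520 were lower (18.4%). Of these 14578 regions, 8651 (59.3%) differed by less than 1.5-fold. The difference was over 2-fold in 565 higher regions (1.38%) and 111 lower ones (0.272%). Over 4-fold, 40 regions were higher (0.0979%) and 41 lower (0.1%), and 50 of these 81 were over 8-fold apart. The 4-fold line ran through a thinly filled range, with log2 differences of 2.09 and 1.99 just inside and outside it on the higher side and of -2.07 and -1.99 on the lower side.

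The broad set of small differences ran with the level of the region. In the lowest 10% of regions by mean CPM over the 16 libraries, the median log2 difference was 0.46 and 28.7% of regions were higher in hsfb1. In the highest 10% the median was -0.46 and 77.3% of regions were lower. Narrow regions, which hold fewer counts, lay on the higher side in the same way. The slope was smaller without Tak-1 replicate 2, from 0.29 in the lowest 10% to -0.23 in the highest 10%, and larger without Tak-1 replicate 1, from 0.65 to -0.66. In the heated libraries of the same lines the medians were 0.05 and -0.13, and in the ABA set 0.07 and -0.01. Without Tak-1 replicate 2 the number of regions called fell to 480, and without hsfb1 replicate 2 to 752. With loess offsets, which set the mean trend with level to 0 in every library, 4058 regions were called. The part of library composition in the broad set was not tested.

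**Figure D1:**
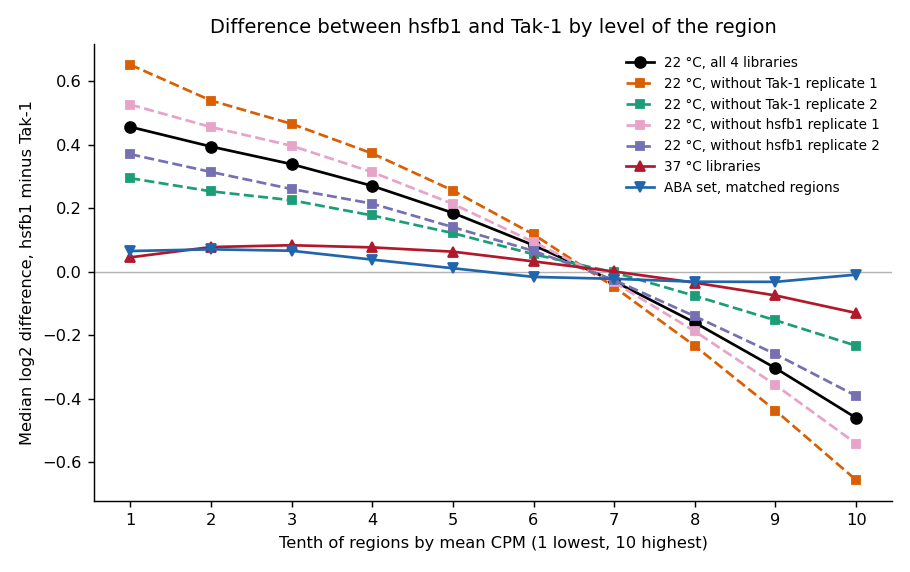
Median log2 difference between hsfb1 and Tak-1 (y axis) in 10 equal groups of the 40873 regions ordered by mean CPM over the 16 libraries (x axis), for the 4 libraries at 22 °C, with each of the 4 left out in turn, for the heated libraries and for matched regions of the ABA set. The line for 22 °C falls from 0.46 to -0.46, the one without Tak-1 replicate 2 from 0.29 to -0.23, and the heated and ABA lines stay between -0.13 and 0.08.

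The large differences were found again in other libraries of the same lines. Of the 40 regions over 4-fold higher in hsfb1 at 22 °C, 39 were also called higher in heated hsfb1 against heated Tak-1, where 1418 regions (3.47%) were called higher among all regions. The exception lay at chr5:14231826-14231925. All 41 lower regions were called lower in the heated libraries, where 640 regions (1.57%) were called lower. In the ABA set 34 of the 35 higher regions with a match were called higher, beside 3559 of 53390 regions (6.67%), and 33 of the 34 lower regions were called lower, beside 3254 (6.09%). The matched regions that did not pass there were chr2:25330410-25330496 and chr4:6629607-6629739. In the other direction, 38 of 38 regions over 4-fold higher (0.093% of all regions) and 48 of 50 over 4-fold lower (0.122%) in the heated libraries were called the same way at 22 °C. The difference between the lines did not pass the test of depending on temperature in any of the 81 regions, and it did so in 4 of all 40873 regions (0.00979%), each with a lower heat response in hsfb1.

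The small differences were found again less widely. Of all 7058 higher regions, 841 (11.9%) were called higher and 3 lower in the heated libraries, and of the 7520 lower regions, 311 (4.14%) were called lower and 0 higher. Over 2-fold at 22 °C, 109 of 565 higher regions (19.3%) and 96 of 111 lower ones (86.5%) were called the same way under heat. Over all regions the log2 differences at 22 °C and under heat had a Pearson's r of 0.59, and those at 22 °C and in the ABA set had one of 0.54 over 38335 matched regions. Genotype lines are shared by these sets and libraries are not, and regions are not independent replicates.

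**Figure D2:**
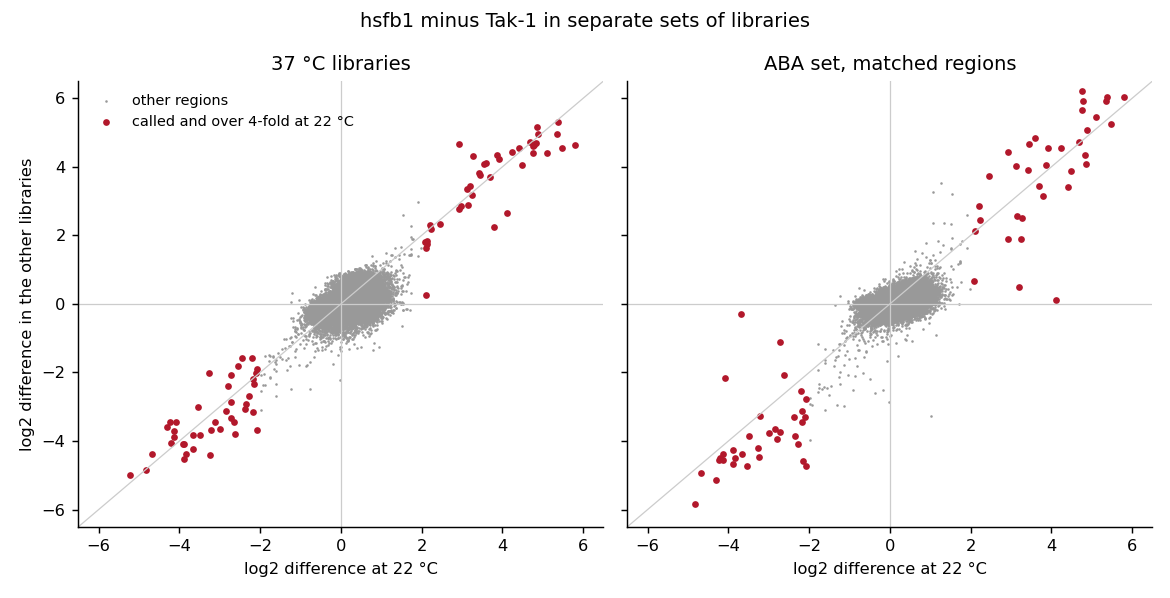
Log2 difference between hsfb1 and Tak-1 at 22 °C (x axis) against the same difference in the heated libraries (left, y axis) and in matched regions of the ABA set (right, y axis). Each point is a region and the grey diagonal marks equal values. The 81 regions called and over 4-fold apart at 22 °C (red) lie along the diagonal in both panels, apart from a few near 0 on the y axis.

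Among the regions with higher accessibility in hsfb1, the named ones had under 3 CPM in Tak-1 and between 6 and 60 CPM in hsfb1. Those named are the 12 with the highest log2 difference among regions with a mean of at least 50 counts and no overlap between the genotypes. Over all regions, both hsfb1 libraries lay above both Tak-1 libraries in 34.8% and below them in 29.6%. The region chr4:9202230-9203395 had 1.15 and 1.60 CPM in the 2 Tak-1 libraries and 54.7 and 59.0 CPM in the 2 hsfb1 libraries. The log2 difference was 5.36 (SE 0.17, adjusted p = 1.85e-20). At chr5:10299142-10299897 Tak-1 had 1.29 and 2.23 CPM and hsfb1 had 49.0 and 52.1 CPM. Both hsfb1 libraries were thus far above both Tak-1 libraries, by 4.83 on the log2 scale (SE 0.15, adjusted p = 1.85e-20).

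A closed state in Tak-1 marked the weaker regions too. At chr3:16921545-16921851 Tak-1 had 0.192 and 0.468 CPM and hsfb1 had 10.9 and 12.2 CPM. At chr3:24211609-24211838 Tak-1 had 0.551 and 0.134 CPM and hsfb1 had 9.14 and 10.5 CPM. At chr4:5665355-5665495 Tak-1 had 0.192 and 0.379 CPM and hsfb1 had 6.15 and 6.82 CPM. These are 3 of 5 regions with a mean under 0.5 CPM in Tak-1 and of at least 5 CPM in hsfb1. The log2 differences of the 3 were 5.10 (SE 0.39), 4.85 (SE 0.34) and 4.47 (SE 0.31), with adjusted p-values of 6.18e-11, 1.12e-11 and 5.17e-12.

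The other named higher regions had a wider range of levels in hsfb1. At chr5:26307711-26308380 the 2 libraries of Tak-1 had 0.862 and 1.69 CPM and those of hsfb1 37.4 and 38.2 CPM. At chr6:20644007-20644400 the values were 0.719 and 0.846 CPM in Tak-1 and 22.0 and 20.5 CPM for hsfb1. At chr8:13894567-13894968 they were 0.814 and 0.735 CPM in Tak-1 and 20.1 and 19.7 CPM for hsfb1. No library of one genotype overlapped the other in these regions, and the log2 differences were 4.87 (SE 0.22), 4.75 (SE 0.22) and 4.68 (SE 0.26). At chr4:194863-195520 Tak-1 had 0.623 and 0.690 CPM and hsfb1 19.5 and 16.3 CPM, a log2 difference of 4.76 (SE 0.25). The regions chr2:28546159-28546883, chr2:10184401-10184802 and chr2:10458106-10458869 complete the 12, with means of 15.0 ± 1.16, 26.7 ± 3.84 and 52.2 ± 1.48 CPM (SD, n = 2) in hsfb1.

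The 12 named regions with lower accessibility in hsfb1 were open in Tak-1 and under 3 CPM in the mutant. Over all 41 lower regions the mean in hsfb1 reached 9.13 CPM, with a median of 0.80 CPM. At chr5:15945676-15947059 Tak-1 had 40.7 and 42.6 CPM and hsfb1 had 1.92 and 2.66 CPM. The log2 difference was -4.21 (SE 0.16, adjusted p = 1.39e-18). At chr3:14178151-14178762 Tak-1 had 25.6 and 29.3 CPM and hsfb1 had 1.14 and 2.06 CPM. Both hsfb1 libraries lay far below both Tak-1 libraries, by -4.14 on the log2 scale (SE 0.22, adjusted p = 4.72e-15). At chr4:19376176-19376585 Tak-1 had 22.5 and 25.5 CPM and hsfb1 had 1.50 and 1.33 CPM, a log2 difference of -4.07 (SE 0.16).

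Of 3 regions with a mean under 0.5 CPM in hsfb1 and of at least 5 CPM in Tak-1, chr4:14238699-14239022 had 9.68 and 6.68 CPM in Tak-1 and 0.26 and 0.60 CPM for hsfb1. At chr2:16067544-16067800 the values were 7.28 and 9.96 CPM in Tak-1 and 0.683 and 0.172 CPM for hsfb1. The third, chr5:26140671-26140988, had 11.1 and 8.40 CPM in Tak-1 and 0.358 and 0.129 CPM for hsfb1. All 3 were thus close to empty in the mutant in both libraries. Other named regions kept a higher remainder. At chr3:7694021-7694541 Tak-1 had 17.3 and 15.9 CPM and hsfb1 had 0.814 and 1.11 CPM. At chr4:16599808-16600693 Tak-1 had 19.5 and 15.6 CPM and hsfb1 had 1.04 and 1.37 CPM. At chr1:15712496-15712759 Tak-1 had 9.01 and 11.9 CPM and hsfb1 had 0.651 and 0.772 CPM. Their log2 differences were -4.13 (SE 0.20), -3.88 (SE 0.19) and -3.88 (SE 0.27). The lowest 12 also hold chr8:19632004-19632464, at 11.9 ± 1.74 CPM in Tak-1 and 0.802 ± 0.260 CPM in hsfb1 (SD, n = 2), and chr1:17091164-17091887 and chr4:16113525-16114277. All 24 named regions passed the threshold in the same direction in the 12 alternative analyses run, with a log2 difference of at least 3.60 in size.

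**Figure D3:**
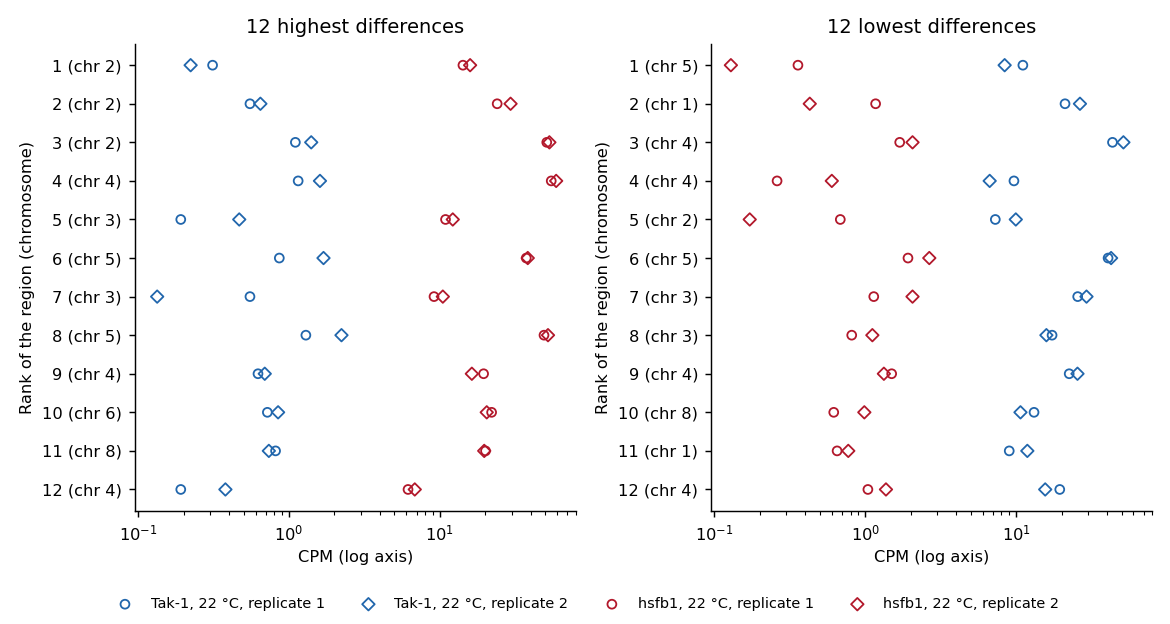
CPM on a log axis (x axis) in the 2 Tak-1 libraries (blue) and the 2 hsfb1 libraries (red) at 22 °C for the 12 regions with the highest (left) and the 12 with the lowest (right) log2 difference, ranked from the top and labelled by chromosome (y axis). Circles are replicate 1 and diamonds replicate 2. In no row do the 2 colours overlap.

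The 81 regions were narrower than all regions at the median, and most had no large difference of the same direction nearby. The 40 higher ones had a median width of 290 bases and the 41 lower ones of 263 bases, against 435 bases over all regions. Within 20 kb on either side, 28 of the 40 higher regions had no other region that was called and over 2-fold higher, and 35 of the 41 lower ones had none that was called and over 2-fold lower. The regions around them had a median log2 difference near the median of all regions, 0.13 for the higher and 0.05 for the lower, where all regions had 0.06. A neighbour over 2-fold in the same direction was present for 12 of the 40 and 6 of the 41, at medians of 6.5 and 8 neighbours. Over all regions, 1.38% were called over 2-fold higher and 0.272% over 2-fold lower. How often other regions have such a neighbour was not counted, so these counts are not read as a trait of the 81.

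A stretch of chromosome 7 was the plainest group of neighbours. There chr7:2583755-2583819, chr7:2583978-2584048, chr7:2585150-2585261, chr7:2585522-2586455 and chr7:2586745-2587262 follow each other and were called higher in hsfb1, with log2 differences of 2.21, 1.91, 1.53, 3.68 and 3.86. The largest 2 had means of 1.27 and 1.13 CPM in Tak-1 and of 16.2 and 16.4 CPM in hsfb1. In hsfa1, where HSFB1 is not knocked out, they were also open, with means of 12.5 and 21.2 CPM. The next regions on either side, chr7:2580410-2580764 and chr7:2587994-2589431, had log2 differences of 0.25 and -0.20 and were not called (adjusted p = 0.30 and 0.178). Under heat all 5 regions were called higher in hsfb1 again, with log2 differences of 2.31 to 4.35. Between dko and hsfa1 at 22 °C the first 4 were higher in dko, by 2.31, 1.43, 2.44 and 1.59 on the log2 scale, and the last was lower, by -2.08. Under heat the difference between dko and hsfa1 at the last region was 0.38 and was not called (adjusted p = 0.0981).

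Losing HSFB1 was read a second time in lines that lack HSFA1, by comparing dko with hsfa1 at 22 °C. This comparison shares no library with the first. Across all regions it called 3925 higher (9.6%) and 4554 lower (11.1%). Of the 40 regions over 4-fold higher in hsfb1, 20 were called higher in dko than in hsfa1 and 5 were called lower. Of the 41 lower regions, 19 were called lower and 9 higher. Under heat, 21 of the 40 were called higher in dko than in hsfa1 and 1 lower. Of the 41, 6 were called lower and 11 higher under heat, where 0.795% of all regions were called higher. A test of the interaction at 22 °C asks whether the difference depends on the HSFA1 background. The test passed in 31 of the 40 and in 36 of the 41. Over all regions it passed in 16038 (39.2%). The 40 and 41 regions were chosen on a difference that enters the interaction, so a high count among them was favoured by the choice.

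The broad set of small differences went against the dko comparison more often than with it. Of the 7058 regions higher in hsfb1 than in Tak-1, 292 (4.14%) were higher and 1170 lower in dko than in hsfa1. Of the 7520 lower regions, 277 (3.68%) were lower and 1333 higher. In the dko control libraries, 53.6% and 56.4% of counts were even numbers, against 49.7% to 50.8% in the other 14. The libraries of the ABA set also held more even than odd counts, from 53.1% to 63.3%, those of Tak-1 and hsfb1 included. What this deposited feature does to the comparisons with dko and in the ABA set was not tested.

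Each of the 81 regions was then placed by whether hsfa1 and dko were nearer to hsfb1 or to Tak-1 on the log2 scale of CPM + 0.25. Of the 40 higher regions, 15 were high in hsfb1 alone, 12 in hsfb1 and dko, 2 in hsfb1 and hsfa1, and 11 in all 3 mutants. Of the 41 lower regions, 23 were low in hsfb1 alone, 7 in hsfb1 and dko, 8 in hsfb1 and hsfa1, and 3 in all 3 mutants. In the heated libraries 35 of the 40 and 33 of the 41 had the same placing. The share differed by placing. Of the 7 lower regions placed with hsfb1 and dko, 2 kept it under heat. Of the 2 higher ones placed with hsfb1 and hsfa1, 0 kept it. All comparisons with Tak-1 share its 2 libraries.

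The regions high in hsfb1 alone include chr4:194863-195520, where hsfa1 had 0.665 and 0.815 CPM and dko 0.271 and 0.474 CPM. At chr8:13894567-13894968 hsfa1 had 1.71 and 2.44 CPM and dko 0.860 and 0.711 CPM. Both genotypes thus stayed nearer to Tak-1 than to hsfb1, although dko also lacks HSFB1. At the second region hsfa1 was above Tak-1 by 1.42 on the log2 scale. Among the regions low in hsfb1 alone, chr5:15945676-15947059 had 45.1 and 45.7 CPM in hsfa1 and 31.4 and 32.4 CPM in dko. At chr4:14238699-14239022 hsfa1 had 11.2 and 16.0 CPM and dko 8.78 and 7.35 CPM. The interaction passed at all 4, with values of -5.79, -6.07, 3.70 and 3.55 on the log2 scale. These 4 regions were placed by the same libraries, with hsfa1 and dko both nearer to Tak-1 than to hsfb1. A large interaction was thus favoured by the choice and is not a separate test of the placing.

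In 8 lower regions both single mutants were low and the double mutant lay nearer to Tak-1 than to hsfb1. The level of Tak-1 was not always matched. The means of dko and Tak-1 were 6.61 and 3.16 CPM at chr1:3877526-3877630 and 3.67 and 6.46 CPM at chr1:5379182-5379500. At chr1:17091164-17091887 hsfa1 had 0.760 and 0.362 CPM and dko had 19.4 and 20.1 CPM, beside 21.1 and 26.5 CPM in Tak-1 and 1.17 and 0.429 CPM for hsfb1. At chr3:14178151-14178762 hsfa1 had 1.09 and 2.26 CPM and dko had 22.1 and 26.4 CPM. At chr2:16067544-16067800 hsfa1 had 0.190 and 0.0905 CPM and dko had 5.72 and 5.42 CPM. The log2 difference between dko and hsfa1 was 5.14 (SE 0.29), 3.84 (SE 0.22) and 5.29 (SE 0.42) in these regions, against -4.81, -4.14 and -4.23 between hsfb1 and Tak-1. The placing fixes the direction of this difference at 22 °C. In the heated libraries, which the placing did not use, all 8 were called higher in dko than in hsfa1, beside 0.795% of all regions. At chr5:26140671-26140988 and chr8:19632004-19632464, by contrast, all 3 mutants were low, with means of 0.464 and 0.243 CPM and of 1.57 and 1.71 CPM in hsfa1 and dko.

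**Figure D4:**
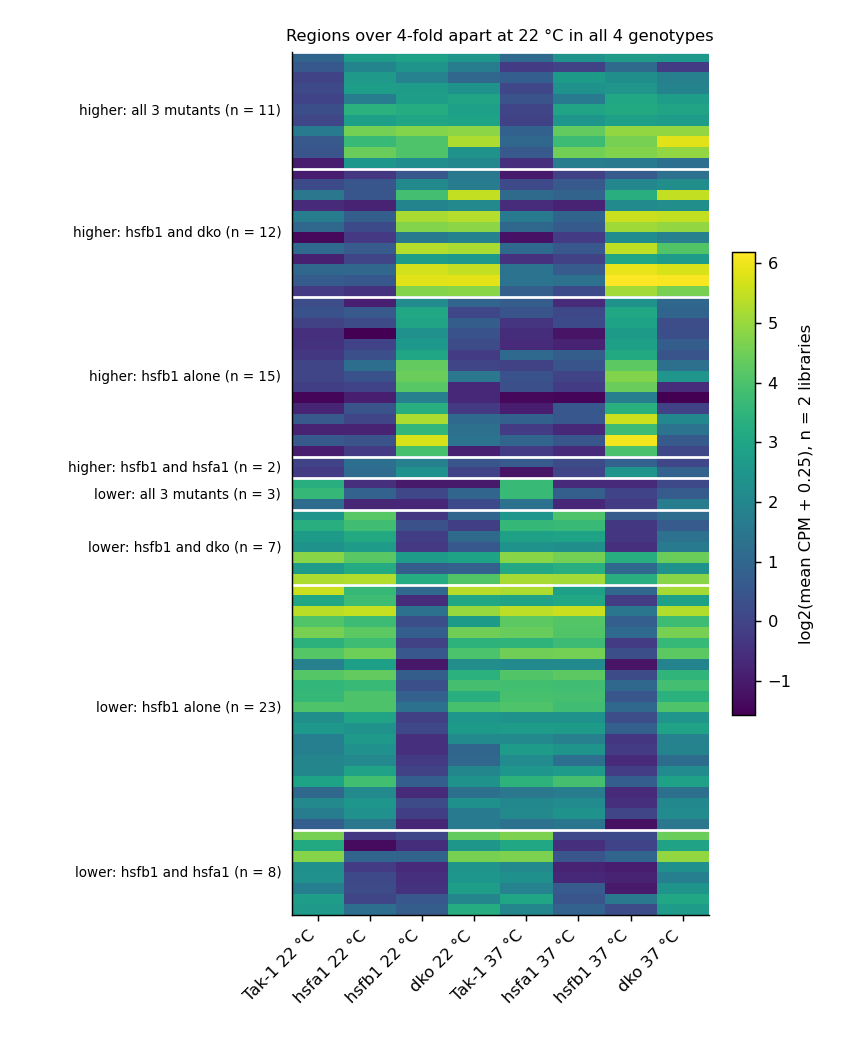
Mean level of the 81 regions over 4-fold apart between hsfb1 and Tak-1 at 22 °C (rows) in the 4 genotypes at 22 °C and after 1 h at 37 °C (columns), as log2 of mean CPM + 0.25 over 2 libraries (colour). Rows are grouped by direction and by which mutants lie nearer to hsfb1, with the number of regions beside each group. Heated columns repeat the colours of the unheated ones in most rows.

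A smaller set of regions followed HSFB1 in every pair of lines measured in the heat table. These were over 2-fold apart and called in the same direction in hsfb1 against Tak-1 and in dko against hsfa1, both at 22 °C and under heat. There were 28 higher regions and 8 lower ones. Over all regions, the share called over 2-fold higher was 1.38% and 0.247% in hsfb1 against Tak-1 at 22 °C and under heat, and 0.455% and 0.257% in dko against hsfa1. The share over 2-fold lower was 0.272%, 0.34%, 2.78% and 0.333% in the same order. In the ABA set, 27 of the 28 and 5 of the 8 were again over 2-fold apart in the same direction between hsfb1 and Tak-1, beside 0.234% higher and 0.315% lower of all regions, and the other 1 and 3 had no match. The heated and unheated pairs come from the same 4 lines, so they are 2 independent pairs of lines at most.

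The 28 higher regions were near to closed in Tak-1 and more open in hsfb1. Their means at 22 °C ran from 0.138 to 3.03 CPM in Tak-1 and from 0.868 to 56.9 CPM in hsfb1, with medians of 0.701 and 6.19 CPM. In hsfa1 the median was 0.978 CPM, with values up to 12.5 CPM, and in dko it was 5.15 CPM. By the placing used above, 15 of the 28 were high in hsfb1 and dko, 6 in hsfb1 alone and 7 in all 3 mutants. In those 7 hsfa1 was thus also nearer to hsfb1 than to Tak-1, as at chr7:2585522-2586455, where the mean was 1.27 CPM in Tak-1 and 12.5 CPM in hsfa1. At chr4:9202230-9203395 hsfa1 had 0.950 and 1.54 CPM and dko had 55.6 and 60.4 CPM. At chr5:10299142-10299897 hsfa1 had 1.52 and 1.99 CPM and dko had 45.4 and 42.9 CPM. The log2 differences between dko and hsfa1 were 5.53 and 4.65 there, next to 5.36 and 4.83 between hsfb1 and Tak-1, and the interaction was not called (adjusted p = 0.650 and 0.572).

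Further regions of this kind lay on chromosome 1. The mean at chr1:985122-985576 was 1.85 CPM in Tak-1 and 39.7 CPM in hsfb1, and 1.34 CPM in hsfa1 and 36.9 CPM in dko. At chr1:21269739-21270162 the means were 1.77 and 26.8 CPM, and 0.880 and 28.3 CPM, in the same order. At chr1:20272114-20272901 they were 3.03 and 36.9 CPM, and 1.48 and 39.9 CPM. Here the means of the 2 genotypes without HSFB1 were close to each other, while the interaction passed at the last 2 of them (adjusted p = 0.00322 and 0.000347). At chr7:5586021-5586712 the 2 genotypes were further apart, with means of 2.58 and 14.3 CPM in Tak-1 and hsfb1 and of 1.16 and 44.1 CPM in hsfa1 and dko, and the interaction also passed (adjusted p = 8.01e-10). Of the 28 regions, 12 passed the interaction test and 16 did not.

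The 8 lower regions showed the reverse, with medians of 5.62 CPM in Tak-1 and 9.18 CPM in hsfa1 against 1.12 CPM in hsfb1 and 2.10 CPM in dko. At chr1:30566694-30566985 the mean was 9.67 CPM in Tak-1, 1.03 CPM in hsfb1, 13.8 CPM in hsfa1 and 0.658 CPM in dko. At chr3:12043848-12044297 it was 5.2, 0.544, 18.0 and 1.70 CPM in the same order. These were the lowest 2 of the 8, with log2 differences of -3.24 and -3.26 between hsfb1 and Tak-1. Of the others, 3 lay on chromosome V, the male sex chromosome, namely chrV:2148243-2148657, chrV:2148767-2148893 and chrV:4713659-4713994, with log2 differences of -1.62, -1.88 and -1.90.

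The 28 higher and 8 lower regions were also read for a response to heat. Among the 28 higher ones, 4 were called for heat against control in Tak-1, 4 in hsfb1, 1 in hsfa1 and 4 in dko. Their log2 change reached 1.26 in size in Tak-1 and 0.82 in hsfb1. Among the 8 lower ones, 3 were called in Tak-1, 1 in hsfb1, 1 in hsfa1 and 4 in dko, and the change reached 0.65 in Tak-1 and 1.29 in hsfb1. Over all regions, heat called 25% in Tak-1, 15% in hsfb1, 37.7% in hsfa1 and 29.3% in dko. In hsfb1 the share of the 28 was thus near that of all regions. Both sets were chosen for the same direction with and without heat, so these counts are not read as a trait of them.

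**Figure D5:**
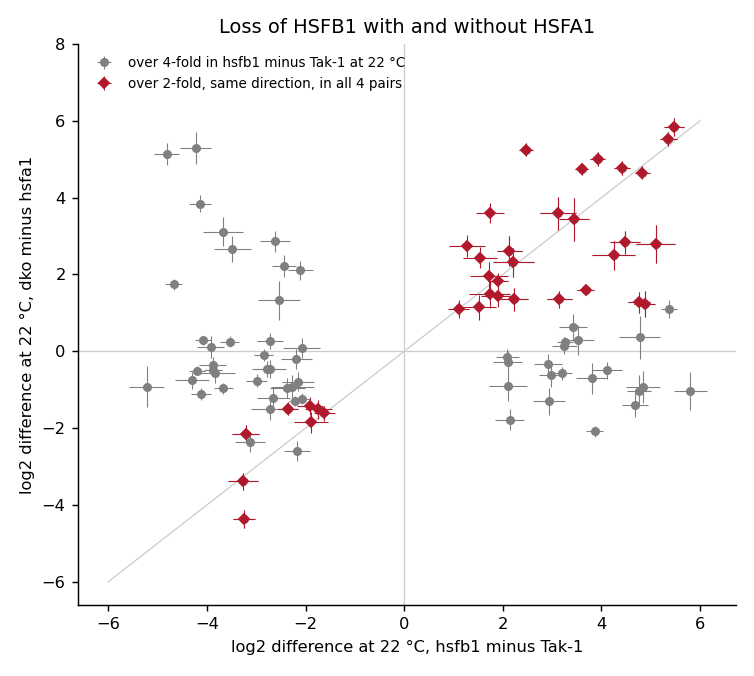
Log2 difference at 22 °C between hsfb1 and Tak-1 (x axis) and between dko and hsfa1 (y axis), with the SE of each as bars. Grey points are the 81 regions over 4-fold apart between hsfb1 and Tak-1, and red diamonds the 28 higher and 8 lower regions over 2-fold apart in the same direction in all 4 pairs, which were chosen on both axes. The red points lie in the corners where both differences have the same sign, and grey points at the upper left have opposite signs.

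Large differences were rare among the regions with the most counts. In the highest 10% by mean CPM, 4 regions were called and over 2-fold higher, and 0 over 2-fold lower. The region chr3:24852349-24853734 had 41.2 and 50.3 CPM in Tak-1 and 155 and 158 CPM for hsfb1. The log2 difference was 1.78 (SE 0.14, adjusted p = 9.79e-11) at 22 °C, 1.90 under heat and 1.83 in the ABA set. The hsfa1 libraries had 94.1 and 92.8 CPM and the dko libraries 176 and 185 CPM, so all 3 mutants were above Tak-1. At chr5:8850737-8851596 Tak-1 had 28.9 and 42.0 CPM and hsfb1 82.4 and 86.3 CPM, with log2 differences of 1.25 at 22 °C, 1.11 under heat and 1.52 in the ABA set.

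The other 2 of these 4 did not recur. At chrV:7405048-7406354 Tak-1 had 243 and 37.0 CPM and hsfb1 247 and 408 CPM. The first Tak-1 library was thus at the level of the first hsfb1 library. The call (log2 1.23, adjusted p = 0.0198) was lost without Tak-1 replicate 2 (0.43, adjusted p = 0.322), and under heat the adjusted p was 0.515. At unplaced-scaffold_098:3823-6485 Tak-1 had 73.2 and 41.1 CPM and hsfb1 100 and 135 CPM, and the log2 difference of 1.04 was -0.06 under heat.

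The lowest 4 of the same 10%, chr7:5727479-5728505, chr5:19854057-19855589, chr8:18953499-18954312 and chr5:22031250-22032118, had log2 differences of -0.91, -0.90, -0.88 and -0.88. In each, replicate 2 of Tak-1 was far above replicate 1, as at chr5:19854057-19855589 with 101 and 174 CPM beside 83.0 and 64.1 CPM in hsfb1. Without that library none of the 4 passed (adjusted p = 0.0539 to 0.0940). Their log2 differences in the ABA set were -0.04, -0.04, 0.01 and -0.12.

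Regions tied to heat and HSFA1 in other libraries were read in the comparison at 22 °C. Regions over 2-fold more open with HSFA1 under heat, in Tak-1 against hsfa1 and in hsfb1 against dko, numbered 276. At 22 °C, 126 of them were called higher in hsfb1 and 3 lower (45.7% and 1.09%, beside 17.3% and 18.4% of all regions), with a median log2 difference of 0.56 where all regions had 0.06. Of 278 regions that heat opened over 2-fold in both hsfa1 and dko, 112 were called higher and 3 lower (40.3% and 1.08%), with a median of 0.50. Of 682 regions that heat closed over 2-fold in both, 195 were called higher and 13 lower (28.6% and 1.91%), with a median of 0.39. All 3 lists thus lay on the higher side, the closed list included. Their median levels were 4.21, 4.34 and 3.67 CPM, where all regions had 12.4 CPM. Without Tak-1 replicate 2 the medians fell to 0.31, 0.38 and 0.19, where all regions had 0.03. With loess offsets the calls were 40 higher and 6 lower of 276, 36 and 5 of 278, and 10 and 24 of 682. Over all 40873 regions they were 2065 and 1993. The medians with loess offsets were 0.26, 0.21 and 0.06, where all regions had 0.01. The part of the level of the regions in these counts was not tested.

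Within the first list chr8:20360992-20361196 was over 4-fold higher, with 1.03 and 0.891 CPM in Tak-1 and 3.68 and 4.8 CPM for hsfb1. It was called again under heat at a log2 difference of 1.84. At chr1:21926313-21926533 the direction was the opposite, with 6.20 and 7.75 CPM in Tak-1 and 2.38 and 2.74 CPM for hsfb1, and with 1.95 and 1.31 CPM in hsfa1 and 1.67 and 1.60 CPM in dko. The third named region of this list, chr2:24116165-24117442, had log2 differences of 1.22 at 22 °C and 0.14 under heat (adjusted p = 0.626). Of the regions that heat closed, chr3:22178824-22178938 and chr3:7667993-7668160 were called again under heat, at 1.64 and -2.16 after 2.10 and -1.75 at 22 °C, and chr8:11365683-11365805 was not (1.53 and 0.04). None of the 3 that heat opened was called again. At chr3:6231692-6233135, which heat opened in hsfa1 and dko, Tak-1 had 10.9 and 8.91 CPM and hsfb1 17.0 and 19.0 CPM, and the log2 difference of 0.86 was 0.09 under heat.

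The 8 autosomes were alike in the share of regions called, from 15.9% to 18.3% higher and from 16.7% to 21.6% lower. Chromosome V had 42 of 137 regions higher and 8 lower, and the unplaced scaffolds 46 of 95 higher and 3 lower. The median log2 differences of V and of the scaffolds were 0.30 and 0.48. Without Tak-1 replicate 2 they were 0.18 and 0.28, where all regions had 0.03. The table also holds 22 regions on U, the female sex chromosome, although the plants are labelled with a male wild type. U regions took 0.116% to 0.176% of the counts of the 4 libraries. Of the 22, 8 were called higher at 22 °C and 0 lower, and 20 were called higher in heated hsfb1 than in heated Tak-1, beside 3.47% of all regions. The calls on U at 22 °C did not hold without Tak-1 replicate 2, a setting that left few calls over all regions.

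Runs of at least 5 neighbouring regions, no more than 20000 bases apart and called in the same direction, numbered 22 higher and 113 lower. The longest lower runs were chr5:15195327-15217277 with 13 regions, chr2:24373494-24396827 with 12 and chr8:18948944-18958424 with 11, at median log2 differences of -0.60, -0.60 and -0.66. Under heat 1 of the 13 was called lower and 0 of the 12 and of the 11, beside 1.57% of all regions. The longest higher runs covered unplaced-scaffold_078 (10 regions) and unplaced-scaffold_250 (9 regions), followed by chr2:28278759-28289304 and chr5:7116332-7150584 with 7 each. Under heat the medians of the first 3 were 0.16, -0.10 and 0.14, after 0.72, 0.96 and 0.65 at 22 °C. Of their regions, 2 of 10, 0 of 9 and 0 of 7 were called higher under heat, beside 3.47% of all regions. In chr5:7116332-7150584 the median log2 difference was 0.75 at 22 °C and 0.74 under heat, and 5 of the 7 regions were called under heat. Without Tak-1 replicate 2 the runs did not stay called as a whole. Few regions of any kind were called there, so this is not read as a trait of runs.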

How the data were processed

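The deposited values are raw counts per region without normalization, per the file headers and the values. Per the submitters' processing notes, the authors used fastp 0.24.0, Bowtie2 2.4.4, MACS2 2.2.7.1 and featureCounts from Subread 2.0.6, with order and settings not given. Whether starts count from 0 or 1 is not given in the sources used here.

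Counts of the 16 libraries of the heat table were fitted with edgeR 4.0.16 in R 4.3.3 (a mean per group, TMM, quasi-likelihood F test, two-sided p-values, Benjamini-Hochberg adjustment over all regions, threshold 0.05). The filterByExpr filter removed 0 regions. CPM are scaled with TMM factors, and CPM of regions of different width are not per length. The 16 libraries of the ABA table (53390 regions) were fitted separately. There titles and column names state opposite treatments, so both treatments were averaged. Regions were matched at an overlap of at least 50% of the shorter (38335 of 40873). The fit was tested on simulated data.

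Groups come from the labels. Regions were named as the 12 highest and 12 lowest with at least 50 counts and no overlap, the 4 highest and 4 lowest of the top 10% by mean CPM, the longest runs, and 3 per list by lowest adjusted p. The regions over 4-fold apart, those in 4 pairs of lines, the neighbours of the 81 and the stretch of chromosome 7 were chosen after their values were seen. Members and lists were chosen with earlier results of these data known. Alternatives were DESeq2 1.42.0, total count scaling, loess offsets, no filter, a replicate block, the 4 libraries alone, a test against 1.5-fold and leaving out each library. Genes, motifs and sequences were not analysed here.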

Additional observations from a re-analysis of the deposited data

Results flagged for a closer look

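The interaction test of edgeR's fit asked whether the difference with HSFB1 loss at 22 °C depended on the HSFA1 background. It passed in 16038 of all 40873 regions (39.2%) and in 21 of the 24 regions with the highest or lowest difference. Those 24 were chosen on a difference that enters the interaction, so a high count among them was favoured by the choice. The interaction is the log2 difference between dko and hsfa1 minus that between hsfb1 and Tak-1. Among the regions higher in hsfb1 it was -6.83 at chr2:28546159-28546883, -6.07 at chr8:13894567-13894968, -5.79 at chr4:194863-195520, -5.78 at chr3:24211609-24211838 and -4.27 at chr2:10458106-10458869. It was -3.65 at chr5:26307711-26308380, -3.48 at chr6:20644007-20644400, -2.30 at chr3:16921545-16921851 and -1.64 at chr4:5665355-5665495, where dko was higher than hsfa1 but by less. In chr2:28546159-28546883, chr3:24211609-24211838, chr4:194863-195520 and chr8:13894567-13894968 dko was not higher than hsfa1, with log2 differences of -1.03, -0.93, -1.03 and -1.39.

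Among the regions lower in hsfb1 the interaction was 9.95 at chr1:17091164-17091887, 9.52 at chr2:16067544-16067800, 7.98 at chr3:14178151-14178762 and 6.42 at chr4:16113525-16114277, where dko was higher than hsfa1. It was 4.37 at chr4:19376176-19376585, 4.30 at chr5:26140671-26140988, 4.03 at chr8:19632004-19632464, 3.70 at chr5:15945676-15947059, 3.55 at chr4:14238699-14239022, 3.53 at chr1:15712496-15712759, 3.39 at chr4:16599808-16600693 and 3.02 at chr3:7694021-7694541. The 3 named regions where the interaction did not pass were chr2:10184401-10184802, chr4:9202230-9203395 and chr5:10299142-10299897.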

How the results depend on the processing

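Most of the 81 regions over 4-fold apart were found in each alternative run, with 78 to 128 regions called over 4-fold and 73 (loess offsets) to 81 of them shared, while the 14578 calls varied more. Loess offsets gave 4058 calls, the 4 libraries alone 3058 and a test against 1.5-fold 145. Over 2-fold (676 regions), total count scaling gave 1764, loess offsets 353 and the test against 1.5-fold 145. Leaving out 1 library at a time gave 480 (without Tak-1 replicate 2) to 20704 calls (without Tak-1 replicate 1), 214 to 2953 over 2-fold with the same 2 left out, and 85 to 128 over 4-fold. It gave 340 (without heated Tak-1 replicate 2) to 4216 (without heated Tak-1 replicate 1) for the heated comparison (2058), with 427 and 914 without hsfb1 replicates 1 and 2, 2934 (without hsfa1 replicate 2) to 5199 for dko against hsfa1 (8479), 9164 (without hsfb1 replicate 2) to 21478 for the interaction (16038) and 3196 (without Tak-1 ABA replicate 2) to 7130 for the ABA set (6813). Loess offsets gave 8773 interaction calls. Total count scaling called 12432 higher and 3284 lower. The cause was not tested beyond the values in the report. The regions in 4 pairs of lines numbered 21 to 28 higher and 7 to 9 lower under all alternatives run.

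Replicate numbers were not taken to pair the samples, since deviations correlated over 0.1 in 6 of 28 pairs of groups in the heat table and 15 of 28 in the ABA table, not in all. A replicate block gave 13783 calls, 687 over 2-fold and 81 over 4-fold, and 1880, 7993, 15433 and 7922 for the heated comparison, dko against hsfa1, the interaction and the ABA set. The deviations of Tak-1 and hsfb1 correlated at -0.44, and the crossed block, chosen after seeing the data, gave 15567 calls. A library left alone in its group took its spread from the rest. The planned reading of gene context was not run.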
